A study of Mus musculus with 6 samples.

Results

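Rab proteins are small GTPases that mark the membranes of a cell. Each switches between a GTP-bound form, which recruits effectors that tether and move vesicles, and a GDP-bound form, which is extracted from the membrane by a chaperone. In neurons they direct the release of synaptic vesicles, the recycling of receptors through endosomes and the supply of membrane to axons and dendrites. Genes were taken as members when their probe set carried a single gene symbol made of Rab, a number and at most a letter and a further digit. The rule found 59 genes among the 19938 with such a probe set. They were read by 62 probe sets, and for Rab2a, Rab5b and Rab11b, which had 2 each, the one with the higher mean over all 6 arrays was used.

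The samples were whole hippocampus of male C57BL/6J mice at 70 days of age. Saline mice had been injected under the skin with 0.15 M saline as pups, and ethanol mice with ethanol in that saline at a dose of 2.5 g/kg, on postnatal days 4 and 7 with 2 injections per day. Littermates were divided between the groups. RNA of 3 non-littermate males was pooled for each array, and there were 3 arrays of each group, so that a pool is the replicate and the spread between single mice is not seen. The values are log2 expression levels from Affymetrix Mouse Gene 1.0 ST arrays, normalized by the authors with RMA. A difference of 1 on this scale is a doubling, and SE below is the standard error of limma's moderated test. As probe sets differ in how strongly they bind, the level of one gene is not ranked against that of another. Of 14 markers of hippocampal neurons, 14 lay above the level of receptor genes explained next. Their mean lay between -0.04 and 0.04 from the saline mean in every pool. Single markers varied more. In ethanol pools 1, 2 and 3, Dsp was at 8.58, 8.37 and 8.14, and Mpped1 at 10.4, 10.59 and 10.68.

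Most of the Rab family was detected in the adult hippocampus. The olfactory and vomeronasal receptor genes of the nose served as a level near background, and the 95th percentile of the saline means of 1194 such genes was 5.36. In the saline pools 51 of the 59 Rab genes (86.4%) had a mean above it, against 62.4% of all genes. The 8 at or below it were Rab17 and Rab25, which act in epithelia, Rab32 and Rab38, which serve melanosomes, and Rab19, Rab20, Rab39 and Rab42. Just above it were Rab7b at 5.44, Rab37 at 5.46, Rab13 at 5.49 and Rab44 at 5.54, and just below it was Rab32 at 5.28. The count was 56 above the median of the receptor genes and 47 above their 99th percentile, and at the latter Rab37 was among those below.

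**Figure D1:**
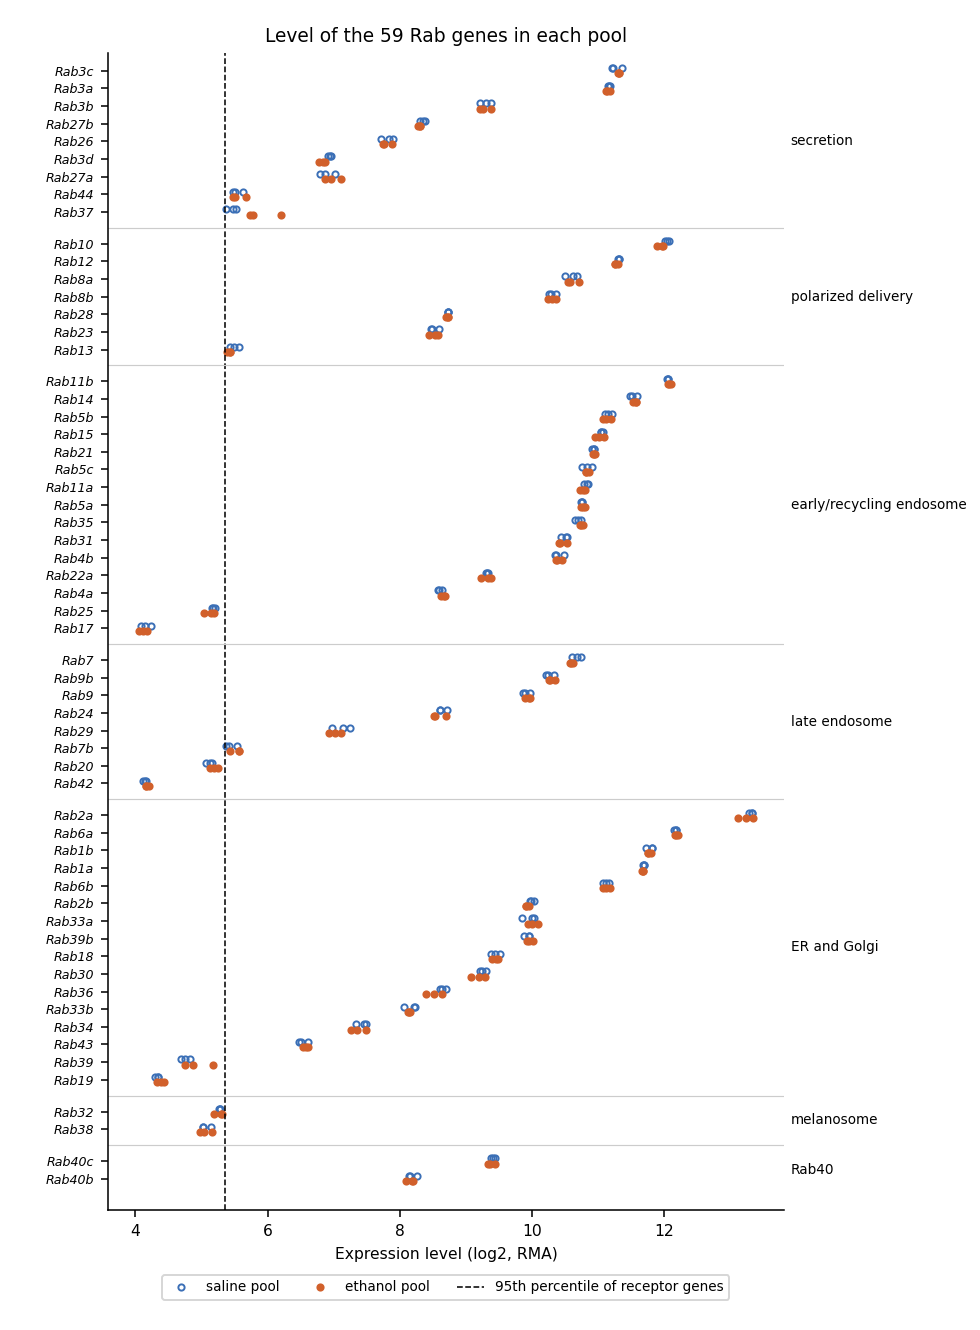
Expression level (log2, RMA) of the 59 Rab genes by role, with 3 saline pools (open) and 3 ethanol pools (filled) per gene. The dashed line at 5.36 is the 95th percentile of receptor genes, and 51 genes have a saline mean to its right.

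The sequence at the gene start differed between members above and at the level of receptor genes. RefSeq promoter sequences of the mouse build GRCm38.p6, from 250 bases before to 50 after a start, were found for 48 members, with the start nearest the 5′ end of the gene used for the 8 that have several. Not matched were Rab2a, Rab4a, Rab7b, Rab18, Rab26, Rab27b, Rab30, Rab36, Rab37, Rab38 and Rab44. The dinucleotide CG, the main site of DNA methylation in mammals, was counted, and it reads the same on both strands. The median was 23 CG in the 41 members above the level of receptor genes and 9 in the 7 at that level, against 7 over all 32851 promoters of the table. The table counts every start of a gene and genes of every level, whereas each member entered with a single start. At least 10 CG were held by 38 of the 41, by 3 of the 7 and by 43.5% of all promoters. The exceptions run both ways. Rab39, at the level of receptor genes, held 27 CG, and Rab33a, at a saline mean of 9.96, held 7.

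The 100 bases before the start are shown for Rab3d and Rab10, the matched members past the unadjusted threshold described below, and for Rab42 and Rab17, the matched members with the lowest saline means, with each CG in capitals. All 4 genes lie on the minus strand. The stretches are chr9:21918184-21918283 for Rab3d, chr12:3309970-3310069 for Rab10, chr4:132303357-132303456 for Rab42 and chr1:90967668-90967767 for Rab17, all in GRCm38.p6.
Rab3d: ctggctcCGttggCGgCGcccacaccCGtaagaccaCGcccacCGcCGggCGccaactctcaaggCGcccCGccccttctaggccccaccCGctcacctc
Rab10: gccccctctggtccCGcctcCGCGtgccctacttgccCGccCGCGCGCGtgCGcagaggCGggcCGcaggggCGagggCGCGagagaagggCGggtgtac
Rab42: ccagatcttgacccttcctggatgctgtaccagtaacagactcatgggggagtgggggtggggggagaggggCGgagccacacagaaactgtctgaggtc
Rab17: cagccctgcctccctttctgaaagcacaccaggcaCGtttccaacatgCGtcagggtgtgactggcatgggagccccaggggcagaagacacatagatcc
These stretches hold 11 CG in Rab3d, 15 in Rab10, 1 in Rab42 and 2 in Rab17. The counts describe the letters, and methylation was not analysed here.

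The comparison of ethanol with saline asks which Rab transcripts still differed in adult hippocampus after exposure in the neonatal period. Of the 59 genes, 0 passed an adjusted p under 0.05 in limma, as did 0% of all genes (lowest adjusted p = 0.931). At an unadjusted p under 0.05, 3 members passed (5.08%), against 5.22% of all genes, so that the family was called about as often as any gene. Rab37 was higher, and Rab3d and Rab10 were lower. Over all genes, 2.8% passed as higher and 2.41% as lower. With a change over 1.2-fold in addition, Rab37 alone of the 59 passed, against 0.276% of all genes. The methods' t-test gave 4 members at the unadjusted threshold, these 3 and Rab2b, against 5.04% of all genes, and 0 after adjustment.

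**Figure D2:**
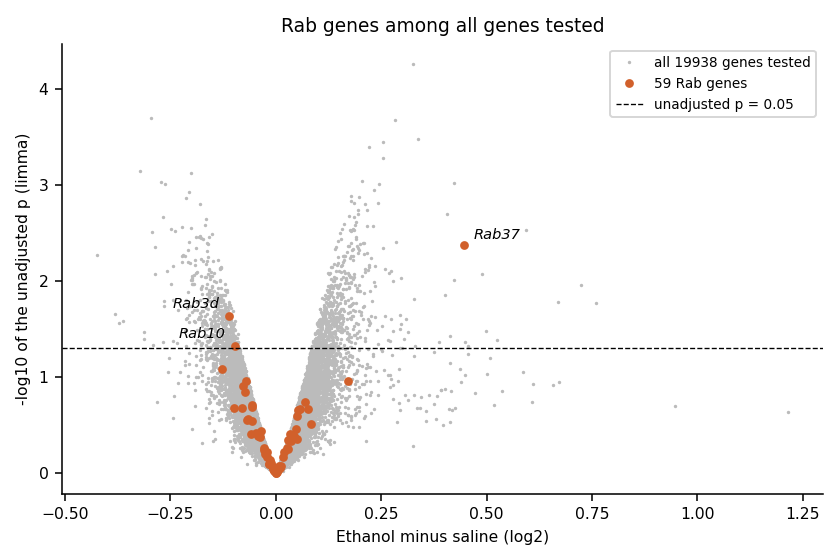
Ethanol minus saline (log2) against -log10 of the unadjusted p of limma for all 19938 genes (grey) and the 59 Rab genes (orange). Rab37, Rab3d and Rab10 lie above the dashed line at an unadjusted p of 0.05, and the other 56 Rab genes lie below it.

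Changes across the family were small. The median log2 change of the 59 members was -0.006, against 0.000 over all genes, with 26 members higher and 33 lower in the mean (55.9% lower, against 49.9% of all genes). Above the level of receptor genes, the median was -0.006 both for the 51 members and for all 12448 genes, and 56.9% of the members and 54.9% of all genes were lower. Of the 59, 57 changed by less than 0.13 in either direction, and the other two were Rab37 and Rab39. The 95% confidence interval of the change lay within 1.2-fold in both directions for 55 members (93.2%), against 92% of all genes. The 4 with a wider interval were Rab37, Rab39, Rab36 and Rab29. The spread between pools of one group was close to that of other genes, with a median SD of 0.054 for the members and 0.06 for all genes.

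Pools of the 2 groups did not overlap in 8 of the 59 genes (13.6%), against 10.4% of all genes. All ethanol pools were higher in 3 members (5.35% of all genes), Rab37, Rab11b and Rab42, and lower in 5 (5.09% of all genes), Rab10, Rab3d, Rab1a, Rab2b and Rab27b. In Rab1a and Rab11b the groups were separate only because pools of one group lay so close together, with changes of -0.01 ± 0.04 (SE) and 0.03 ± 0.04.

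**Figure D3:**
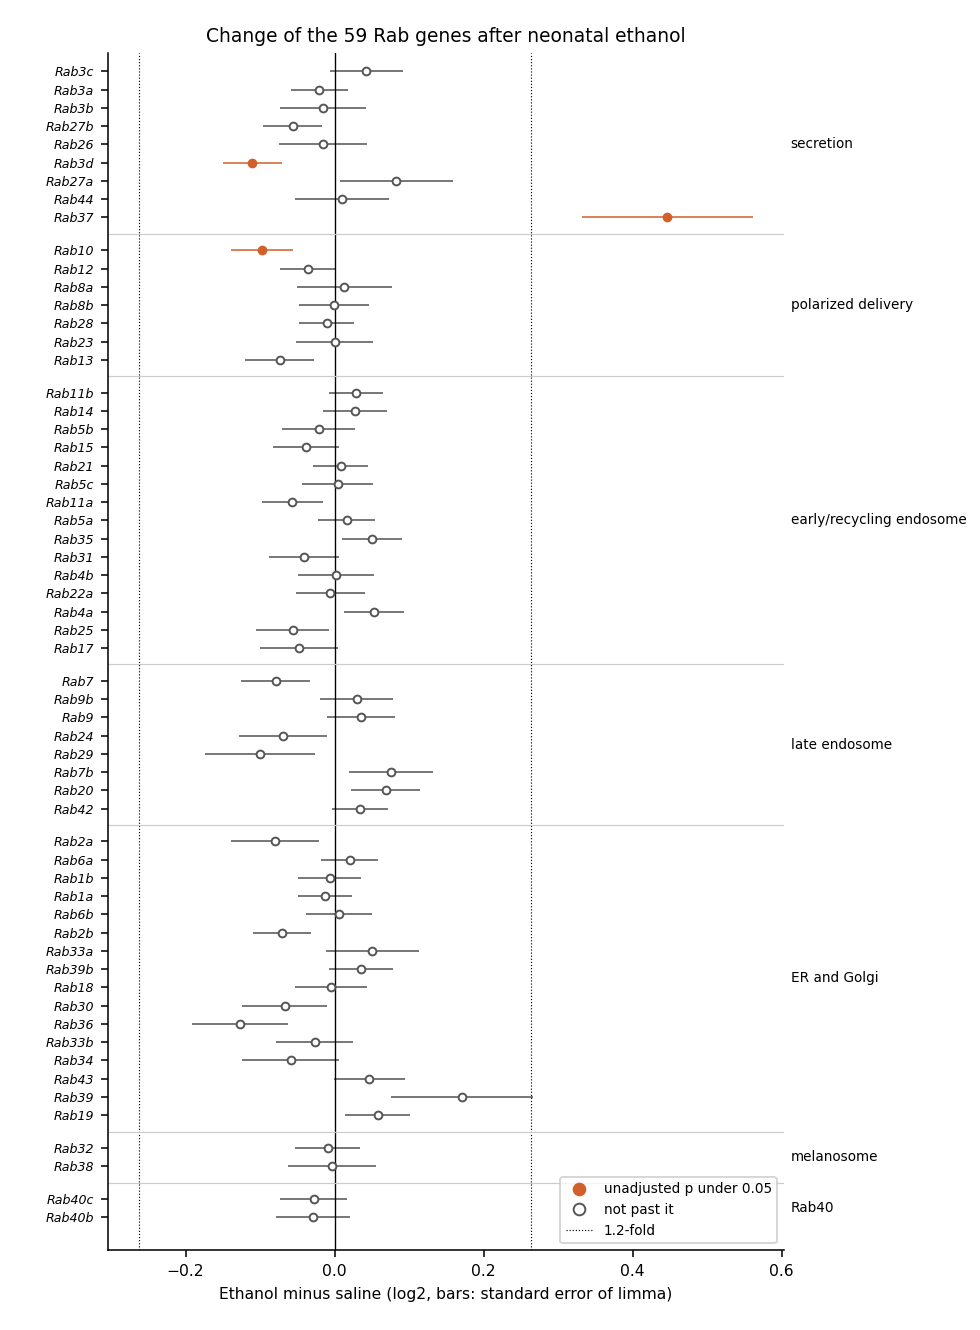
Ethanol minus saline (log2) of the 59 Rab genes by role, with bars for the standard error of limma and dotted lines at 1.2-fold. Filled points are Rab37, Rab3d and Rab10, which passed an unadjusted p under 0.05, and every other member lies between -0.13 and 0.17.

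Rabs of regulated secretion and synaptic vesicles were 9 genes, of which 1 passed the unadjusted threshold as higher and 1 as lower, against 5.22% of all genes in either direction. Rab37 marks secretory granules and was first studied in mast cells. Its log2 level was 5.48, 5.36 and 5.53 in saline pools 1, 2 and 3 and 6.21, 5.78 and 5.73 in ethanol pools 1, 2 and 3. The lowest ethanol pool lay above the highest saline pool, and ethanol pool 1 stood well above the others. The group means were 5.46 ± 0.084 (SD, n = 3) and 5.9 ± 0.263 (SD, n = 3). The log2 change was 0.45 ± 0.12 (SE), or 1.36-fold with a 95% confidence interval from 1.14 to 1.64 (limma, unadjusted p = 0.00417, adjusted p = 0.931). Of all 19938 genes, 24 had a change at least as large in either direction, Rab37 included. In the methods' t-test, which uses the spread of this gene alone, the unadjusted p was 0.0487. The study's own table of genes with p under 0.05 and a change over 1.2-fold does not list Rab37. Without ethanol pool 1 the change was 0.30, and it was 0.40 to 0.54 with any other pool left out. With 3 pools in each group, the smallest p of an exact permutation test is 0.1.

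Some marker genes of other tissue moved with Rab37. Of 18 markers of the thalamus and habenula, which lie next to the hippocampus, 12 passed the unadjusted threshold, 12 of them higher and 0 lower, against 5.22% of all genes. Of these 12, 7 were above the level of receptor genes in saline and 5 at it. Not past the threshold were Plekhg1 at 0.28 ± 0.16 (SE), Tac2 at 0.21 ± 0.27, Adarb1 at 0.14 ± 0.08 and Pou4f1 at 0.04 ± 0.05. Gbx2 at 0.01 ± 0.06 and Nwd2 at -0.01 ± 0.08 also did not pass. The list joins thalamus and habenula and was not split, so the count does not say that both moved. The study picked several of the 12 on the same arrays, and the list was written with earlier results of these data known. Droplet digital PCR in the study, on the samples used for the arrays, also gave Tcf7l2, Vipr2 and Synpo2 as higher after ethanol. Set against its own saline mean, the list average was 0.61 in ethanol pool 1, 0.29 in pool 2 and 0.12 in pool 3, and between -0.06 and 0.05 in the saline pools. On the same measure Rab37 was at 0.75, 0.32 and 0.27, in the same order. The endothelial and mural list also had this order, at 0.04, 0 and -0.07, as did Dsp of the hippocampal list. The choroid plexus list of 17 genes had another order, at 1.07, -0.29 and 0.64, with 3 genes past the threshold as higher, 17 higher in the mean and a median change of 0.5. Of 8 mast cell markers, 7 lay at the level of receptor genes, among them the granule proteases Cpa3, Cma1, Tpsb2 and Mcpt4, and the list lay at 0.04, 0.04 and 0.05 in the ethanol pools. The remaining one, Kit, is also known from neurons and had a change of 0.00 ± 0.07 (SE). Of this list Mcpt4 passed the unadjusted threshold, at 0.13 ± 0.04. Of 15 oligodendrocyte markers 4 passed, all lower, and 0 passed in limma among the 9 microglial, 10 astrocytic and 10 endothelial and mural markers. The part of other tissue in the Rab37 values was not tested. In pooled tissue, more cells of a type and more RNA per cell cannot be told apart.

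**Figure D4:**
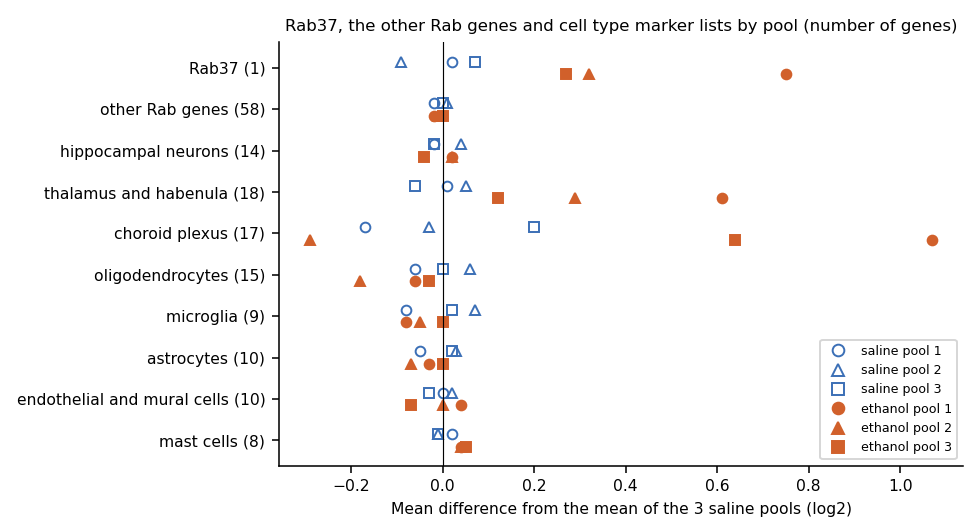
Each pool's distance from the saline mean (log2) for Rab37, the mean of the other 58 Rab genes and the mean of each marker list, with the number of genes in brackets. Among the ethanol pools, Rab37 and the thalamus and habenula list have pool 1 highest and pool 3 lowest. The endothelial and mural list has the same order at smaller values. The other Rab genes lie between -0.02 and 0.01 in every pool.

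Rab3d, a Rab3 protein best known from exocrine and endocrine granules, was lower after ethanol. Its log2 level was 6.92, 6.95 and 6.94 in saline pools 1, 2 and 3 and 6.87, 6.84 and 6.78 in ethanol pools 1, 2 and 3. The groups did not overlap, and the gap between the nearest pools was small. The log2 change was -0.11 ± 0.04 (SE), a fold change of 0.93 with a 95% confidence interval of 0.87 to 0.987 (limma, unadjusted p = 0.0228, adjusted p = 0.931). It did not pass without saline pool 2, without saline pool 3, without ethanol pool 3 or with an intensity trend, at changes of -0.09 to -0.11.

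The Rab proteins known best from synaptic vesicles showed no such difference. Rab3a, the main Rab of synaptic vesicles, had log2 levels of 11.15, 11.17 and 11.17 in saline and 11.14, 11.12 and 11.18 in ethanol. Its change was -0.02 ± 0.04 (SE), and the 95% confidence interval of the fold change ran from 0.928 to 1.05. Rab3c, its close relative, had levels of 11.36, 11.21 and 11.23 in saline and 11.31, 11.30 and 11.31 in ethanol, with a change of 0.04 ± 0.05. The pools overlapped in both. Rab3b was at -0.02 ± 0.06, and Rab26, which acts on secretory granules and synaptic vesicles, at -0.02 ± 0.06. Rab27a and Rab27b, which dock granules at the plasma membrane, were at 0.08 ± 0.08 and -0.06 ± 0.04. Rab44, an unusually large Rab of granulated blood cells, was at 0.01 ± 0.06.

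**Figure D5:**
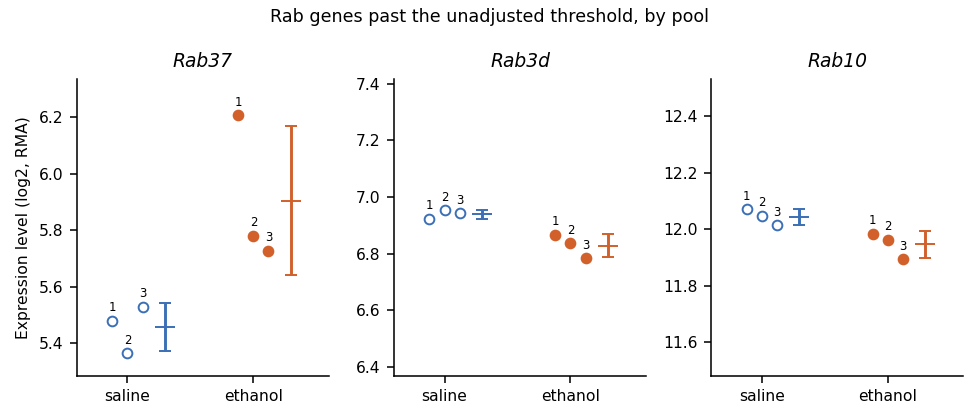
Log2 level (RMA) of Rab37, Rab3d and Rab10 in pools 1 to 3 of each group, with the mean and SD (n = 3) beside the points and an axis of the same length in each panel. The Rab37 pools of ethanol spread from 5.73 to 6.21, while those of Rab3d and Rab10 lie close together below the saline pools.

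Rabs of polarized membrane delivery and cilia included Rab10, which sends vesicles to growing axons and, in fat cells, the glucose transporter to the cell surface. Its log2 level was 12.07, 12.05 and 12.01 in saline pools 1, 2 and 3 and 11.98, 11.96 and 11.89 in ethanol pools 1, 2 and 3. Ethanol pool 3 was the lowest, and the groups did not overlap. The log2 change was -0.10 ± 0.04 (SE), a fold change of 0.93 with a 95% confidence interval of 0.875 to 0.999 (limma, unadjusted p = 0.0473, adjusted p = 0.931). It passed with ethanol pool 1 left out and with no other pool left out, where it ranged from -0.07 to -0.11. The 6 other members of this group did not pass. The next largest change in it was that of Rab13, a Rab of tight junctions, at -0.07 ± 0.05. Rab8a and Rab8b, which act in exocytosis and the primary cilium, were at 0.01 ± 0.06 and 0.00 ± 0.05, and Rab23, a brake on Hedgehog signalling, was at 0.00 ± 0.05.

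Rabs of early and recycling endosomes were 15 genes, of which 0 passed the unadjusted threshold in limma, the adjusted threshold or the methods' t-test. Their changes lay between -0.06 and 0.05 with a median of 0.002. For each of the 15 the 95% confidence interval lay within 1.2-fold in both directions. The largest changes were those of Rab25 at -0.06 ± 0.05 (SE), an epithelial Rab at the level of receptor genes, and of Rab11a at -0.06 ± 0.04, which returns receptors from recycling endosomes to the surface. Rab5a, Rab5b and Rab5c, which fuse early endosomes, were at 0.02 ± 0.04, -0.02 ± 0.05 and 0.00 ± 0.05. The second probe set of Rab5b gave -0.04 ± 0.05. That of Rab11b was much dimmer, at a saline mean of 6.15 against 12.05, and gave -0.08 ± 0.07 where the brightest gave 0.03 ± 0.04.

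Rabs of late endosomes, lysosomes and autophagosomes were 8 genes, of which 0 passed at the unadjusted threshold in limma or the methods' t-test, with a median change of 0.032. With only genes above the level of receptor genes, which leaves out Rab20 and Rab42, the median was -0.02. Rab29, which acts with the kinase LRRK2 at lysosomes, had levels of 6.98, 7.25 and 7.14 in saline and 7.02, 6.94 and 7.11 in ethanol, with a change of -0.10 ± 0.07 (SE). It passed at -0.17 ± 0.06 without saline pool 1, its lowest saline pool. Rab24, a Rab of autophagy, was at -0.07 ± 0.06 and passed at -0.13 ± 0.05 without ethanol pool 3. Rab7, the main Rab of late endosomes, had levels of 10.74, 10.68 and 10.60 in saline and 10.59, 10.57 and 10.62 in ethanol, with a change of -0.08 ± 0.05. In Rab29 and Rab7 the pools overlapped.

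Rabs of transport in the endoplasmic reticulum and Golgi apparatus were 16 genes, with a median change of -0.006 and 0 past the unadjusted threshold in limma. Rab39 and Rab36 had the largest changes. Rab39 had levels of 4.83, 4.70 and 4.75 in saline and 4.75, 5.17 and 4.88 in ethanol, at the level of receptor genes, and ethanol pool 2 stood above the rest (0.17 ± 0.10, SE, unadjusted p = 0.109 in limma). Rab36, a Golgi Rab, had levels of 8.69, 8.60 and 8.63 in saline and 8.65, 8.39 and 8.51 in ethanol. Its change was -0.13 ± 0.06, and ethanol pool 1 lay within the saline pools. Without that pool it passed at -0.19 ± 0.06, as it did at -0.14 ± 0.06 with each array centred on its median. Rab1a and Rab1b, which carry cargo from the endoplasmic reticulum to the Golgi, were at -0.01 ± 0.04 and -0.01 ± 0.04, and Rab6a, a Golgi Rab, at 0.02 ± 0.04. Rab2a was at -0.08 ± 0.06 in its brightest probe set and at -0.07 ± 0.05 in the other. The former passed at -0.14 ± 0.05 without ethanol pool 1. Its relative Rab2b, at -0.07 ± 0.04, passed in the methods' t-test only.

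The melanosome Rabs Rab32 and Rab38, which lay at the level of receptor genes, were at -0.01 ± 0.04 (SE) and 0.00 ± 0.06. Rab40b and Rab40c, which join a ubiquitin ligase, were both at -0.03, with SEs of 0.05 and 0.04.

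The count of 3 members depended on single pools. Without saline pool 2 or without saline pool 3 only Rab37 passed at the unadjusted threshold, against 5.03% and 3.65% of all genes. Without ethanol pool 1, 6 members passed, against 6.21% of all genes, namely Rab37 and Rab39 as higher and Rab36, Rab2a, Rab3d and Rab10 as lower. Rab37, which was singled out with earlier results of these arrays known, passed the unadjusted threshold with each of the 6 pools left out in turn.

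Proteins that regulate Rabs or are recruited by them were read from 143 other genes, grouped by function. Of these, 5 passed the unadjusted threshold (3.5%, against 5.22% of all genes), 3 higher and 2 lower, with a median change of -0.003 and 0 past the adjusted threshold in limma. Among 7 genes that attach Rabs to membranes or extract them, Chml passed. It encodes a Rab escort protein, which presents new Rabs for prenylation. Its log2 level was 6.69, 6.62 and 6.60 in saline pools and 6.87, 6.93 and 6.80 in ethanol pools, with no overlap. The change was 0.23 ± 0.05 (SE), or 1.18-fold (limma, unadjusted p = 0.00112, adjusted p = 0.931).

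Of 53 effectors, 1 passed the unadjusted threshold as higher and 1 as lower (3.77%, against 5.22% of all genes). Mlph, or melanophilin, which links Rab27a to a myosin motor, had levels of 5.76, 5.77 and 5.73 in saline and 5.55, 5.59 and 5.52 in ethanol. The groups did not overlap, and the change was -0.20 ± 0.04 (SE; limma, unadjusted p = 0.000742, adjusted p = 0.931). Rilp, which couples Rab7 to dynein, was higher by 0.17 ± 0.04, and its saline mean was no higher than that of receptor genes. Unc13a, or Munc13-1, a priming factor of vesicle release, was at -0.02 ± 0.04, and its relative Unc13b at 0.01 ± 0.05. These last 2 genes were named after their values were seen.

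Of 36 GTPase-activating proteins, which switch Rabs off, 2 passed the unadjusted threshold (5.56%, against 5.22% of all genes). Tbc1d8 was higher at 0.16 ± 0.05 (SE) and Tbc1d15, which acts on Rab7, lower at -0.11 ± 0.04. Of 35 exchange factors, which switch Rabs on, 0 passed in limma, against the same 5.22% of all genes. The largest changes were those of Dennd5b at -0.11 ± 0.05 and Als2cl, at the level of receptor genes, at -0.09 ± 0.05. The kinases and the phosphatase acting on Rabs did not pass. Lrrk2, which phosphorylates Rab10 and other members, was at 0.03 ± 0.05, Lrrk1 at 0.10 ± 0.05, Tbk1 at 0.01 ± 0.05 and the phosphatase Ppm1h at 0.02 ± 0.05. Of 8 Rab-like and related genes outside the naming rule, 0 passed in limma, and the largest changes were those of Rabl3 at -0.05 ± 0.04 and Cracr2a at 0.04 ± 0.05.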

How the data were processed

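Hippocampal RNA of 3 mice was pooled per array, with 3 arrays for saline and 3 for ethanol, grouped by the treatment in the labels. Probes were summarized per gene by the authors with RMA, and the log2 values were used as deposited. Not given in the sources used here are the RMA software, its version and the annotation's genome build. Values ran from 3.51 to 13.92, array medians from 5.84 to 5.89, and arrays correlated at 0.997 to 0.998 across probe sets. Precision is limited by the number of arrays, and the median SE over all genes was 0.049. Gene names came from the platform annotation, and all 59 members were found in the RefSeq gene table of GRCm38.p6, with 0 symbols changed. Of 35556 probe sets, the 23410 with a symbol entered a two-sided moderated test in limma 3.58.1 (R 4.3.3; functions lmFit, eBayes), adjusted by Benjamini-Hochberg over all of them, with no covariate, after the ANOVA of the methods. With 2 groups, that ANOVA without moderation is the t-test called the methods' t-test. It was run here and does not return the study's own gene table in full, which lacks Rab37. The brightest single-symbol probe set of each gene was used. The test was checked on simulated data.

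The members, their roles and the gene lists were chosen with earlier results of these data known. Every member could be named, and full statistics were given to those past the unadjusted threshold. In each role group the 2 members with the largest change were named, in each list up to 4 genes past the threshold or else the 2 with the largest change. A comparison of protein sequences planned beside these was not made. Alternatives were the replicate number as a block, the methods' t-test, centring arrays on their median, quantile normalization, filters on dim genes, other sets of rows, averaging the probe sets of a gene, an intensity trend, array weights, fold thresholds of 1.1 and 1.5, other levels for receptor genes, and each array left out.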

Additional observations from a re-analysis of the deposited data

How the results depend on the processing

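Rab37 was singled out with earlier results of these arrays known, and the alternatives refit the same arrays. It kept its direction and passed the unadjusted threshold under all 16 alternatives in which it was tested, at 0.30 to 0.54. It was not among the probe sets above the median level. The count past the adjusted threshold was 0 under all 17 alternatives. Above the median level, of 46 members 0 passed the unadjusted threshold as higher, 2 passed it as lower and 0 passed with 1.2-fold. Of 117 partner genes 2 passed. The share over all genes is not given for that filter. The number of members past the threshold as lower was 1 with all rows of the value table, with an intensity trend and with array weights. In these settings 3.79%, 5.21% and 7.71% of all genes passed in either direction. With array weights 12 of 143 partner genes passed, against the same 7.71% of all genes. At 1.5-fold, 0 members passed. The median change was -0.021 with each array centred on its median. The median of late endosome Rabs turned from 0.032 to -0.02 above the level of receptor genes and to -0.069 above the median level. That of endosome Rabs turned from 0.002 to -0.014 with centring, and that of Golgi Rabs from -0.006 to 0.008 without saline pool 2. With each pool left out in turn, 1 to 6 members passed, against 3.65% to 6.31% of all genes, 1 to 2 higher and 0 to 4 lower, the median change was -0.024 to 0, pools did not overlap in 13 to 16 members (22% to 27.1%, against 17.5% to 23% of all genes), and 5 to 9 partner genes passed, 9 of them without saline pool 1. Mlph, Chml and Rilp passed under every alternative in which they were tested, while Tbc1d8 did not without ethanol pool 1 and Tbc1d15 in 4 of 6 cases of a pool left out. Causes were otherwise not tested.

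Pools share replicate numbers and littermates were divided between the groups, but no source used here says that pools of one number hold littermates. Deviations from the group means correlated at -0.076, -0.009 and 0.059 between same-numbered pools, and not every pool correlated best with its own number. With the number as a block, Rab37 passed at 0.45 (limma, unadjusted p = 0.00201), Rab3d at -0.11 (0.0466) and Rab36 at -0.13 (0.0389), and Rab10 did not at -0.10 (unadjusted p = 0.0597).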
